A study of Homo sapiens with 6 samples.

Results

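Genes disallowed in beta cells are genes that most tissues use but that mature pancreatic beta cells keep at a low level. Here they were LDHA, SLC16A1, HK1, HK2, REST, ACOT7, PDGFRA, OAT, CXCL12 and MGST1, 10 of the 19676 protein-coding genes annotated in GENCODE 44. Their chromatin accessibility was read at 60 of the 108542 accessible regions in the table. Regions that came within 2 kb of the start of a protein-coding transcript of a member were taken as promoter regions. A distal region was any other region whose middle had a start of a member as its nearest protein-coding start, within 100 kb. This gave 14 promoter regions at 9 of the 10 genes, MGST1 having none, and 46 distal regions at 9 of the 10 genes, REST having none. Of all protein-coding genes 78.7% had a promoter region and 67.1% a distal region.

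A beta cell secretes insulin in proportion to the ATP it makes from glucose, so it works as a glucose sensor. It sends nearly all the pyruvate made from glucose to its mitochondria. High-affinity hexokinases would make it respond at fasting glucose, and lactate dehydrogenase with a lactate and pyruvate carrier would let it lose pyruvate as lactate or respond to pyruvate from working muscle.

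Accessibility was measured by ATAC-seq, in which the transposase Tn5 inserts sequencing adaptors into open DNA. All libraries came from EndoC-βH3, a human beta cell line derived from a fetal pancreas and immortalised with hTERT and the SV40 Large T antigen, both of which can be excised by a tamoxifen-inducible Cre. In the labels 3 libraries are of non-senescent cells, which keep the transgenes, and 3 are of senescent cells, treated with 4-OHT for 3 weeks. Both groups are 1 line with the genotype given as WT, and each library was made from 100000 cells. The libraries are therefore repeats of 1 line rather than of donors, and the transgenes, their excision and the tamoxifen derivative cannot be told apart.

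The values below describe both states together. The deposited table gives, for each region, 1 mean read count over all libraries of both groups after the authors' size-factor normalisation, here the mean signal. No column holds a single library, so no value below has an SD, an interval or a test, the difference between senescent and non-senescent cells is not given, and the order of genes with close values cannot be set against replicate error. Between genes the mean signal was compared per kb of region. A region open in a few cells and a region weakly open in all cells cannot be told apart. A promoter region need not hold a start of its gene, and it can be shared by several genes. The promoter level of a gene is that of its promoter region of highest mean signal. Its percentile is the share of the 15493 genes with a promoter region that had a lower level per kb. The median over these genes was 686 per kb, the 10th percentile 158 and the 90th percentile 1662.

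The label of the cells was read from marker lists on the same scale. Counts of markers with a promoter region stand beside the 78.7% of all protein-coding genes that had one. Of 16 beta cell markers all 16 had a promoter region, with a median percentile of 81.2 and a lowest level of 286 per kb at G6PC2, a glucose-6-phosphatase subunit of islets. INS stood at 1427 per kb, in a region of 5533 bp that it shares with IGF2 and INS-IGF2, so the signal cannot be divided between them. Of 7 mesenchyme markers 5 had a promoter region, with a median percentile of 6.83, and of 5 endothelium markers 2 had one, both below percentile 10. The 5 of 7 acinar, 4 of 5 duct, 5 of 5 alpha cell and 2 of 5 blood cell markers with a region had median percentiles of 6.77, 8.39, 19.0 and 37.1.

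The promoters of the disallowed genes were spread over a 20.3-fold range of signal per kb. LDHA was highest with 1572 per kb, followed by OAT with 1177, SLC16A1 with 623, ACOT7 with 508 and CXCL12 with 409. PDGFRA with 144, HK1 with 135, REST with 115 and HK2 with 77.4 formed a low set. In percentiles of genes, LDHA and OAT stood at 88.4 and 77.0, the next 3 between 29.1 and 45.4, and the low 4 between 3.02 and 8.87. The median percentile of the 9 genes was 29.1, where that of all genes is 50 by construction, with 7 of 9 below the median of genes and 2 above it. The widest step between neighbours was the 2.84-fold one from CXCL12 to PDGFRA, and the smallest the 1.07-fold one from PDGFRA to HK1. The list thus held 2 promoters above the median of genes, 3 of middling level, 4 below the 10th percentile and 1 gene with no accessible promoter region by coding starts.

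**Figure D1:**
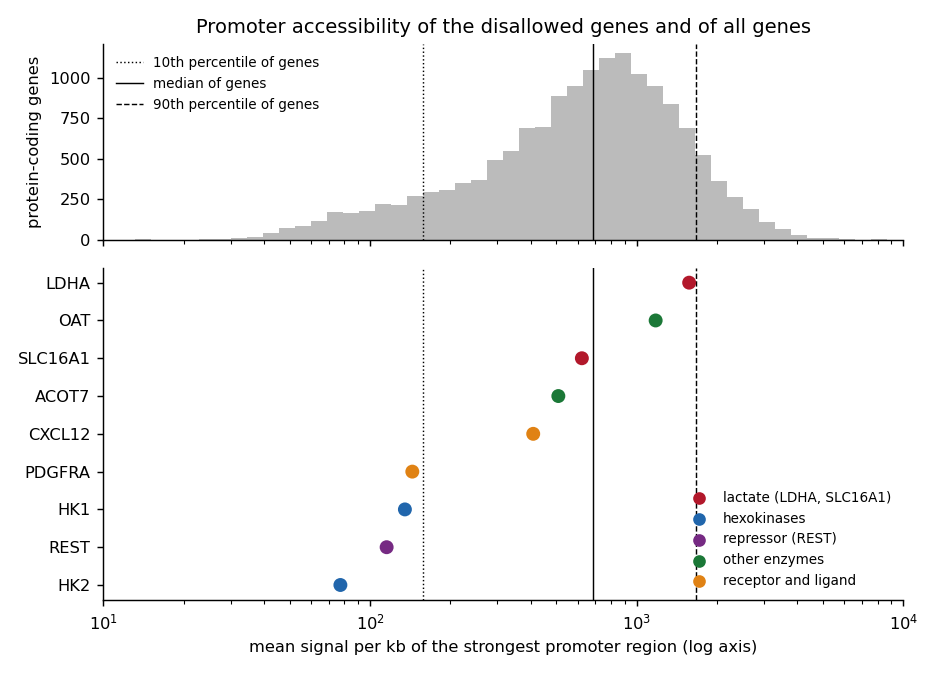
Mean signal per kb of the strongest promoter region, on a log axis, for all 15493 protein-coding genes with a promoter region (upper panel, number of genes per bin) and for the 9 disallowed genes with one (lower panel, 1 point each, coloured by role). Vertical lines mark the 10th percentile, the median and the 90th percentile of genes. PDGFRA, HK1, REST and HK2 lie left of the 10th percentile, and LDHA and OAT lie right of the median.

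The sequences before the starts of 6 of the genes are shown because they set the starts of the 2 genes with the highest promoter levels beside 2 of the lowest and beside 2 starts with no region on them. For LDHA the sequence lies at the canonical start, in its weaker promoter region of 717 per kb, and not in the intronic region that gives its level. They are the RefSeq promoter windows on GRCh38.p14, 5′ to 3′ in the direction of the gene, and end before the first protein-coding start of the gene within the window, so that they hold at most 250 bases. MGST1 has another annotated coding start before its window. Capitals mark 3 motifs on either strand: ACGTG, the core of the hypoxia response element and of the E-box CACGTG that contains it, CCAAT, the NF-Y box, and GGGCGG, the GC box of SP factors.
LDHA: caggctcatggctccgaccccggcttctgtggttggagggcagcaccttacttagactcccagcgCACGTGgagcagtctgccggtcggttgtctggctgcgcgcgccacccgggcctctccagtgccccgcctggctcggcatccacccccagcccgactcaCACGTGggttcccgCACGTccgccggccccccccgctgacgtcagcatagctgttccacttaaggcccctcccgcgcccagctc
OAT: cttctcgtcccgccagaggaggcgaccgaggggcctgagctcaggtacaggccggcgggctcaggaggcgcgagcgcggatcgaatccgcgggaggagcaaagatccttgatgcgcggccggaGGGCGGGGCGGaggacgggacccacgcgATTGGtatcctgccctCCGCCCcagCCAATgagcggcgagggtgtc
HK2: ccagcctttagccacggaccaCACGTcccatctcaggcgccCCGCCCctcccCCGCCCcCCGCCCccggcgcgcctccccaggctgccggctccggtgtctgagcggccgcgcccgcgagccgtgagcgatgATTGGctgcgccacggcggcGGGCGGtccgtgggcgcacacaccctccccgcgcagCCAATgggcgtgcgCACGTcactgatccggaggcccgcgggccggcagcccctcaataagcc
REST: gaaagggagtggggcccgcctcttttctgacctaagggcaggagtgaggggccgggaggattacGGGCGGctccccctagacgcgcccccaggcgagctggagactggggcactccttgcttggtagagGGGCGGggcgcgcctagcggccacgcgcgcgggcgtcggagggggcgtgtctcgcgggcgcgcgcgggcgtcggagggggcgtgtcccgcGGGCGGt
PDGFRA: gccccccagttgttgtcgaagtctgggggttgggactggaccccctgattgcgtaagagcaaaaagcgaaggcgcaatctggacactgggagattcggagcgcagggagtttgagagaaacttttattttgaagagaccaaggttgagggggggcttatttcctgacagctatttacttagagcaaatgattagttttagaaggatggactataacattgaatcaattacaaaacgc
MGST1: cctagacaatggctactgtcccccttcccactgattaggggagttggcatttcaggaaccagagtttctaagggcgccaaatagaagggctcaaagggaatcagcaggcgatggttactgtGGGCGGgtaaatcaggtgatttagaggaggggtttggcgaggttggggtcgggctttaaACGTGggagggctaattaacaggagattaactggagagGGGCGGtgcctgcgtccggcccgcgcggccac
The LDHA sequence at chr11:18394313-18394559 held 5 matches to ACGTG, of which 4 belong to its 2 CACGTG boxes, and no CCAAT or GGGCGG. The HK2 sequence at chr2:74833877-74834126 held 2 ACGTG, 2 CCAAT and 4 GGGCGG, so the least open promoter of the list carried all 3 motifs. The OAT sequence at chr10:124418977-124419173 held 2 CCAAT and 3 GGGCGG. That of REST at chr4:56907650-56907875 held 3 GGGCGG, that of PDGFRA at chr4:54229043-54229279 none of the 3 motifs, and that of MGST1 at chr12:16347395-16347644 held 2 GGGCGG and 1 ACGTG. Of the 10 genes 9 matched a RefSeq window, SLC16A1 being the exception. Among 15307 whole windows of 300 bases, which also hold 50 bases after the start, 23.8% had ACGTG, 8.90% CACGTG, 36.6% CCAAT and 59.2% GGGCGG, and among those of the 9 genes 3 had ACGTG, 1 CACGTG, 3 CCAAT and 6 GGGCGG. A match is a run of letters and was not tested as a binding site.

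LDHA and SLC16A1 act in the production and the membrane transport of lactate. LDHA encodes the lactate dehydrogenase subunit that favours the conversion of pyruvate to lactate. It had 8 annotated coding starts, and all 8 lay in an accessible region. Around the canonical start, chr11:18394139-18395024 held 6 of them and had a mean signal of 634, or 717 per kb. The stronger region, chr11:18395743-18396619, lay in an LDHA intron with its middle 1618 bp after the canonical start and had a mean signal of 1377, or 1572 per kb. It held the other 2 starts, which belong to alternative transcripts. Which region stands for the gene therefore changed its place: LDHA fell at percentile 88.4 by its strongest region and at 54.6 by the region with the most starts. LDHB, the subunit that favours pyruvate formation, had 984 per kb, so that LDHA exceeded it 1.60-fold by its strongest region but had 0.728-fold its level by the region at the canonical start. LDHD, a mitochondrial D-lactate dehydrogenase, had 276. LDHC, the testis form, had no promoter region. The single distal region of LDHA, chr11:18379130-18379778, lay between genes 15109 bp before the canonical start, with a mean signal of 498.

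SLC16A1 encodes MCT1, a proton-coupled carrier of lactate and pyruvate. Its 1 promoter region, chr1:112955345-112956829, had a mean signal of 924, or 623 per kb, which put it at percentile 45.4. The region held 3 of its 6 coding starts and also the start of SLC16A1-AS1, a long noncoding RNA on the opposite strand, so the signal cannot be divided between the 2 genes. Among the 13 other SLC16A genes 12 had a promoter region, with a median percentile of 36.8. SLC16A3, the lactate exporter MCT4 of glycolytic tissues, was the highest with 1335 per kb, but none of its coding starts lay in a region. SLC16A6 was the lowest with 137, in a region shared with ARSG. SLC16A7, which encodes the pyruvate carrier MCT2, had 871. Of further carriers, SLC16A11, SLC16A13, SLC16A9 and SLC16A10 had 1131, 1112, 975 and 566 per kb. SLC16A12, SLC16A14, SLC16A8 and SLC16A5 had 456, 185, 182 and 138, and SLC16A4 had no promoter region. The disallowed carrier stood within the range of its family, which ran from percentile 8.28 to 82.6 and would hold most genes. The nearest of its 5 distal regions lay 54673 bp from a start of the gene. Their mean signals ran from 23.6 to 103, with a median of 49.6 beside 88.4 for all distal regions. The strongest of them, chr1:112849469-112850269, held starts of the noncoding genes LINC01356 and LINC01357.

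Both hexokinases of the list had weak promoters. HK1, the hexokinase of brain and red cells, had 135 per kb (percentile 8.10), and HK2, the insulin-regulated hexokinase of muscle and fat, had 77.4 (percentile 3.02). HK1 exceeded HK2 1.75-fold per kb, but their mean signals were close, 92.0 over 681 bp and 90.4 over 1168 bp. HK3, a hexokinase of white blood cells, had 344 per kb in a region of 359 bp, but none of its coding starts lay in a region. HKDC1, a further hexokinase gene, had no promoter region. Downstream of this step, the 17 genes of glycolysis from GPI to the pyruvate kinases all had a promoter region. Their median percentile was 45.1, from 2491 per kb at GPI, the glucose phosphate isomerase, to 112 at PGAM2, the muscle phosphoglycerate mutase. Of 11 genes of glucose uptake and pyruvate entry into mitochondria 10 had a region. The highest was PC, pyruvate carboxylase, with 3452 per kb and the lowest SLC2A2, the GLUT2 transporter, with 264, and the median percentile was 71.6.

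HK1 has starts over 48905 bp, and the accessible one was not the first. Of its 17 coding starts 7 lay in a region, chr10:69318406-69319087, which had a mean signal of 92.0 and lay at the canonical start. A second region in an HK1 intron, chr10:69315072-69315408, lay within 2 kb of another start and had a mean signal of 52.8. The RefSeq window of the gene lay at an upstream start 48847 bp before the canonical one, overlapped no region and was poor in CpG, with an observed over expected ratio of 0.0617, whereas the 300 bases at the middle of the accessible region had 0.957. HK2 had 1 promoter region, chr2:74833956-74835124, with a mean signal of 90.4 over 1168 bp. It held the canonical start and also the start of HK2-DT, a noncoding RNA transcribed in the other direction, while the second coding start lay 46 bp beyond its edge.

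In both hexokinase genes the strongest region was not at a start. The region chr10:69348623-69349263 in an HK1 intron, 30096 bp after the canonical start, had a mean signal of 321, which was 3.49-fold that of the promoter region. The region chr2:74816392-74817152 lay between genes 17355 bp before the start of HK2 and had a mean signal of 395, 4.37-fold that of its promoter region. The remaining distal regions of HK1 and HK2 had mean signals from 25.6 to 80.0. No value here ties a distal region to the gene other than its distance.

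**Figure D2:**
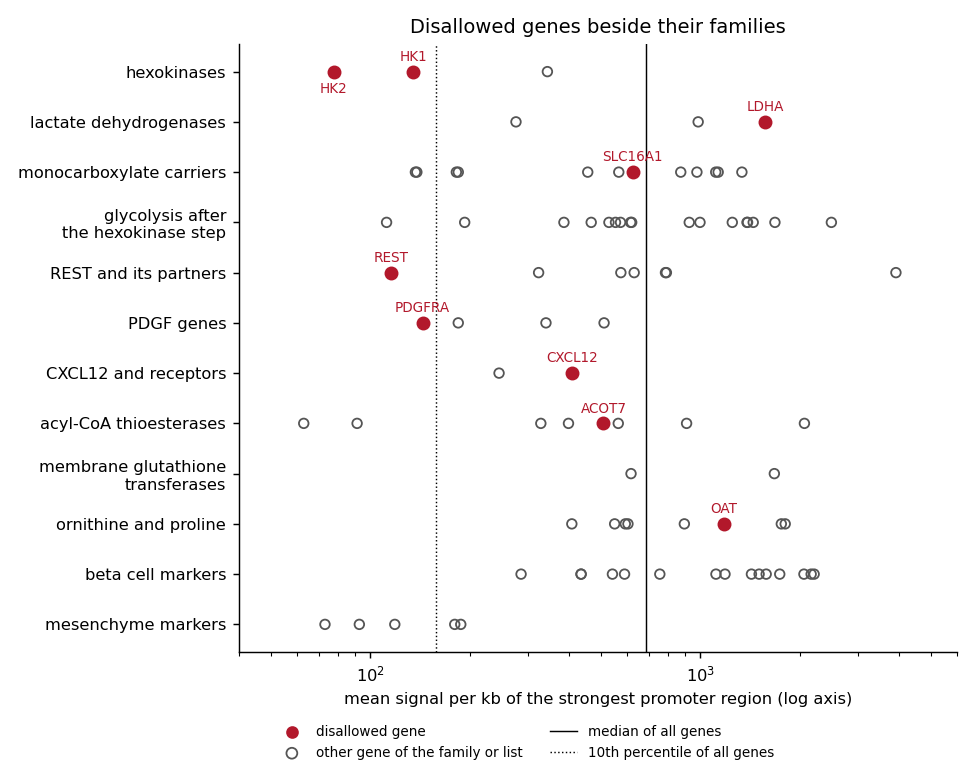
Mean signal per kb of the strongest promoter region, on a log axis, for each disallowed gene (filled red, named) and other genes of its family or list (open circles), with the median of all genes as a solid line and their 10th percentile as a dotted line. HK1 and HK2 lie left of the 10th percentile and of HK3 at 344 per kb, whose region holds no HK3 start. LDHA is the highest of its family by its intronic region but below LDHB by the region at its canonical start (717 per kb, not drawn). MGST1 is missing because it has no promoter region.

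REST encodes the repressor that keeps neuronal genes silent outside neurons, and its absence from beta cells is tied to the neuron-like genes they express. It had 2 weak promoter regions and no distal region. The region chr4:56907274-56908118 over the canonical start had a mean signal of 112, and chr4:56908318-56909354 in the next intron had 120, or 115 per kb, at percentile 6.48. Between them they held 5 of the 6 coding starts, and the remaining start lay 207 bp outside. Summed over both regions the mean signal was 232. The 6 corepressors and enzymes that act with REST all had a promoter region, beside 78.7% of protein-coding genes, and their median percentile was 51.5. They ranged from SIN3A with 3907 per kb to EHMT2, a histone H3K9 methyltransferase, with 323 in a region shared with C2. RCOR1 had 630 per kb. Each measured partner was above REST, as were most genes with a promoter region, since REST stood at percentile 6.48.

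PDGFRA encodes a receptor for platelet-derived growth factors and marks mesenchymal cells. None of its 5 coding starts lay in an accessible region, although 2 regions lay within 2 kb of one. The region chr4:54227414-54228283, with its middle 1445 bp before the canonical start, had a mean signal of 125, or 144 per kb, and chr4:54230735-54230997, 1573 bp after it, had 82.0 over 262 bp, or 313 per kb. The strongest region of the gene was intronic, chr4:54233069-54234473, 4478 bp after the canonical start, with a mean signal of 546, 4.36-fold that of the stronger promoter region. Its summed distal signal of 897 stood at percentile 69.8 of the genes with a distal region. PDGFRB, the second receptor, and PDGFC had no promoter region, and the ligand genes PDGFD, PDGFA and PDGFB had 511, 340 and 185 per kb.

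CXCL12 encodes a chemokine of stromal cells that attracts cells carrying CXCR4. Its promoter was of middling level, but no other gene of the list had as many regions around it. All 4 coding starts lay in chr10:44383690-44385646, which had a mean signal of 800 over 1956 bp, or 409 per kb, at percentile 29.1. A narrow region before it, chr10:44386627-44387016, had 277, or 713 per kb. There were 15 distal regions, which placed the gene at percentile 96.9 by their number, and their summed mean signal of 3214 stood at percentile 94.6. By median of mean signal the 15 stood at 81.6, beside 88.4 for all distal regions, and 8 of the 15 were under 100. The 90th percentile of all distal regions was 519, and 3 of the 15 at CXCL12 exceeded 500. These lay between genes, at chr10:44354850-44355878 with 903, chr10:44310770-44311644 with 707 and chr10:44395284-44396196 with 666, at 29733 and 73890 bp after and 10643 bp before the canonical start. Its receptor gene CXCR4 had 245 per kb, and ACKR3, the scavenger receptor, had no promoter region.

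OAT encodes ornithine aminotransferase, a mitochondrial enzyme between ornithine and glutamate. Its single promoter region, chr10:124417999-124419445, held both coding starts and had the highest mean signal of the list, 1702, or 1177 per kb at percentile 77.0. Of 8 other genes of ornithine and proline metabolism 7 had a promoter region, with a median percentile of 44.1. ASS1, argininosuccinate synthase, was the highest with 1805 per kb and ODC1, ornithine decarboxylase, the lowest with 408. Of its 4 distal regions, chr10:124388702-124390036 had 402 and the other 3 lay between 30.4 and 67.2.

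ACOT7 encodes a cytosolic thioesterase that releases fatty acids from acyl-CoA. Its promoter region, chr1:6393190-6394204, had a mean signal of 515, or 508 per kb, at percentile 36.7, and held 2 of 6 coding starts together with the start of a noncoding gene, ENSG00000271746. All 4 distal regions lay in ACOT7 introns, with mean signals from 26.6 to 185. The 8 other acyl-CoA thioesterases all had a promoter region, with a median percentile of 32.6. ACOT8, the peroxisomal enzyme, was the highest with 2064 per kb, in a region shared with ZSWIM3. ACOT1 was the lowest with 62.9, and none of its coding starts lay in a region. ACOT7 thus lay inside the range of its family.

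MGST1 encodes a glutathione transferase of membranes that detoxifies lipid peroxides. None of its 7 coding starts lay in a region, and the nearest of them to a region was 3315 bp away. It was 1 of 4183 protein-coding genes, 21.3% of all, with no promoter region, and 1 of 2193, 11.1%, with no promoter region but a distal one. Its 6 distal regions summed to a mean signal of 1936, at percentile 87.8. The strongest of all distal regions of the list was among them, chr12:16449793-16450723, in an intron of an MGST1 transcript 102613 bp after the canonical start and 96841 bp from the nearest coding start, with a mean signal of 1100, or 1182 per kb. Under a distal limit of 50 kb it would not have been assigned. When starts of noncoding transcripts were used as well, the region chr12:16356731-16357222, with a mean signal of 74.0 or 151 per kb, became a promoter region of MGST1, at percentile 8.96. The related MGST3 and MGST2 had promoter levels of 1674 and 616 per kb.

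**Figure D3:**
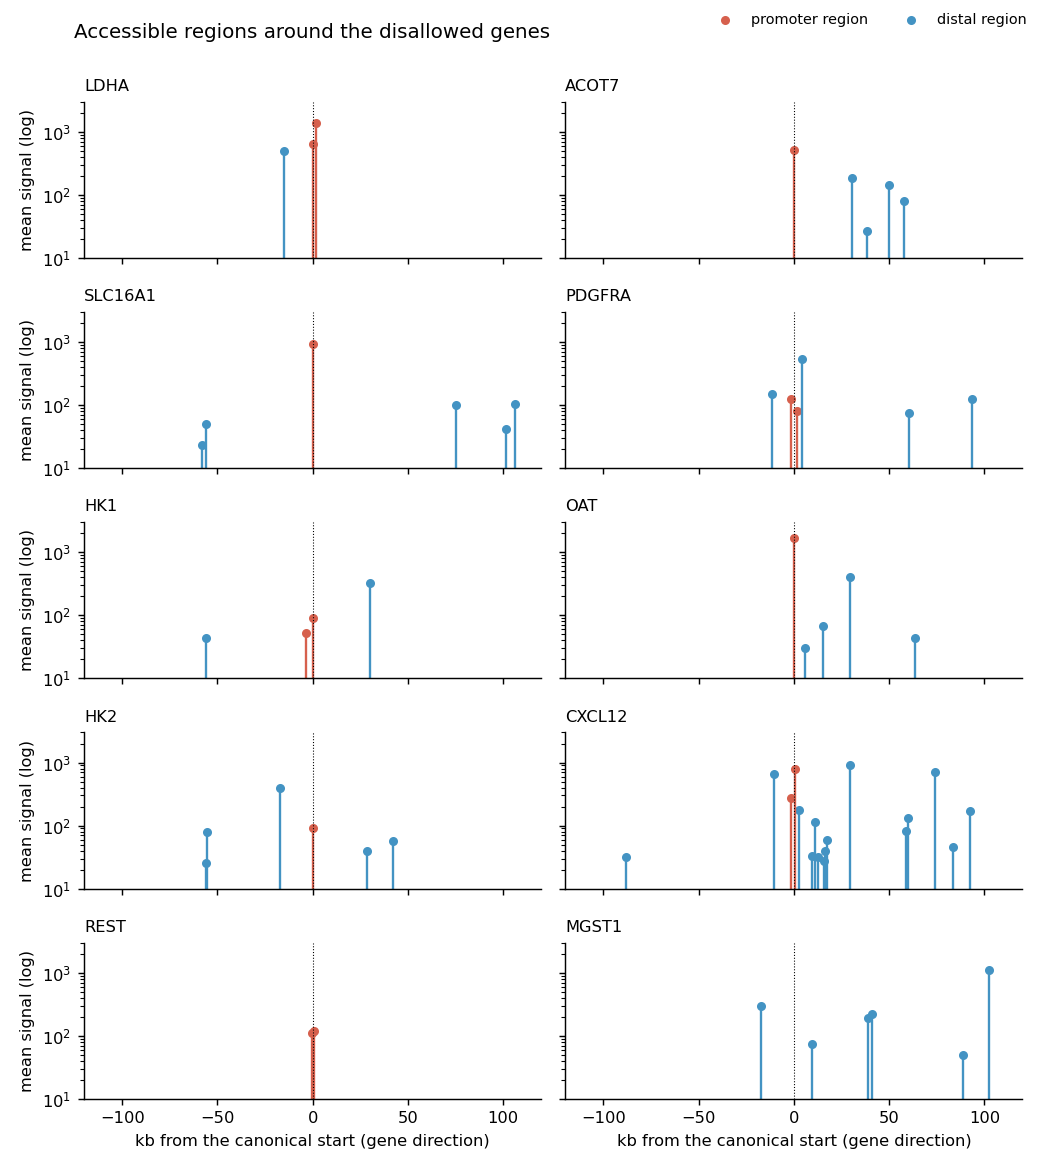
Accessible regions of each disallowed gene by the distance of their middle from the canonical start, in kb in the direction of the gene, with the mean signal on a log axis. Promoter regions are red and distal regions blue. CXCL12 has 15 distal regions, REST none, MGST1 no promoter region, and in HK1, HK2, PDGFRA and CXCL12 the tallest region is distal.

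The 300 bases at the middle of the 2 strongest distal regions are shown as the sites where a search for regulatory sequence would start. They were read from hg38 on the plus strand, at chr10:44355215-44355514 for CXCL12 and chr12:16450109-16450408 for MGST1. Capitals mark CAGATG, the E-box bound by NEUROD1, and TAATTA, the core of homeodomain sites, on either strand.
CXCL12 distal: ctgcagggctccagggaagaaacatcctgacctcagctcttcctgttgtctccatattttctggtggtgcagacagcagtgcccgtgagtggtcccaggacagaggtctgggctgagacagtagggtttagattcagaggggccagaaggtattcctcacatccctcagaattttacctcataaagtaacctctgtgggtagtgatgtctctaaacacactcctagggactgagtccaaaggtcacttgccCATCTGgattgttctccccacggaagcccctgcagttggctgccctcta
MGST1 distal: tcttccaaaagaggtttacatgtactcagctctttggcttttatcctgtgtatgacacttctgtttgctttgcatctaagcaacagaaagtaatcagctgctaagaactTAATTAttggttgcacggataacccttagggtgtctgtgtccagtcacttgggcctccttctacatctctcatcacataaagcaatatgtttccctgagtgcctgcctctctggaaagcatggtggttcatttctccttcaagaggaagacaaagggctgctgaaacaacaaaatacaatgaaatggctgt
The CXCL12 sequence held 1 CAGATG and the MGST1 sequence 1 TAATTA. Among the same 300 bases of all 55158 distal regions, 32.6% held CAGATG and 9.57% TAATTA, so neither letter run was rare.

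Across the list, distal signal was spread around that of all genes. The 46 distal regions had mean signals from 23.6 to 1100 with a median of 80.8, beside 88.4 for all distal regions. There were 25 in introns, 19 of them in introns of the member itself, 16 between genes and 5 in exons. The median percentile of the summed distal signal was 57.1 over the 9 genes with a distal region, and 7 of the 9 were above the median of genes. In HK1, HK2, PDGFRA and CXCL12, 4 of the 8 members with both kinds of region, the strongest distal region had a higher mean signal than the strongest promoter region, beside 28.1% of the 11004 genes with both. Of 63 coding starts of the 10 genes 32 lay in a region, 50.8%, beside 58.0% of the 78579 coding starts of all genes.

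CpG content did not follow the order of accessibility within the list. The ratio of observed to expected CpG in the 300 bases at the middle of the strongest promoter region was 0.957 at HK1, 0.952 at HK2 and 0.928 at REST. LDHA had 0.849 and OAT 0.847 there. This order depended on the bases read. At the LDHA region over the canonical start the ratio was 0.918. In the RefSeq windows of 300 bases OAT had 0.984, above HK2 with 0.940, while REST had 1.08 and LDHA 0.825. ACOT7 had 1.06, SLC16A1 0.949, CXCL12 0.751 and PDGFRA 0.716. All 9 thus exceeded 0.6, a limit chosen after the values were seen, as did 12512 of the genes, 80.8%. Genes over that limit had a median of 735 per kb, and genes under it 446. Among the 12512 genes over the limit, HK2, REST, HK1 and PDGFRA stood at percentiles 2.37, 5.05, 6.26 and 6.87. The levels of HK2, REST and HK1 were thus low also beside genes with CpG-rich promoter regions. For PDGFRA this holds only by a region without a start of the gene. The RefSeq window at its canonical start had a ratio of 0.527, under the limit, and overlapped no region. No measure of DNA methylation or of histone marks was part of the table.

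**Figure D4:**
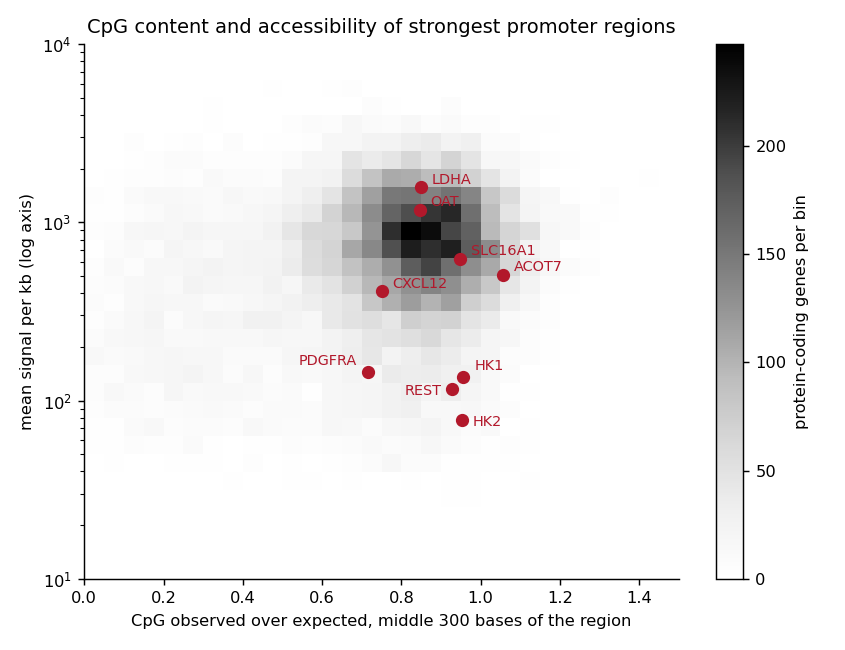
CpG observed over expected in the 300 bases at the middle of the strongest promoter region of each gene against its mean signal per kb on a log axis. Grey squares give the number of protein-coding genes per bin and red points are the 9 disallowed genes with a promoter region. HK1, REST and HK2 lie below the dense part of the cloud at CpG ratios between 0.928 and 0.957.

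The split of the list into high and low promoters was read again under 10 other settings, of which 3 were chosen after the values were seen. LDHA lay between percentiles 54.6 and 90.9, OAT between 76.0 and 83.1 and SLC16A1 between 43.0 and 57.0. HK2 lay between 0.812 and 23.6, REST between 3.14 and 26.4, HK1 between 4.54 and 27.6 and PDGFRA between 5.23 and 28.2. For these 4 genes the upper end came from the setting in which the genes without a promoter region were counted as the lowest, which raises every other gene. PDGFRA also lay above the 10th percentile, at percentile 20.1 with a window of 0.5 kb, at 13.6 with its promoter regions summed and at 20.9 when the region of highest signal per kb stood for the gene. With promoter regions summed, REST reached 14.8 and HK1 10.0, and HK2 stayed at 6.83. ACOT7 ranged from 28.7 to 50.1 and CXCL12 from 26.0 to 57.0. CXCL12 passed the median of genes when its promoter regions were summed, and also, at percentile 51.3, when the region of highest signal per kb stood for the gene.

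**Figure D5:**
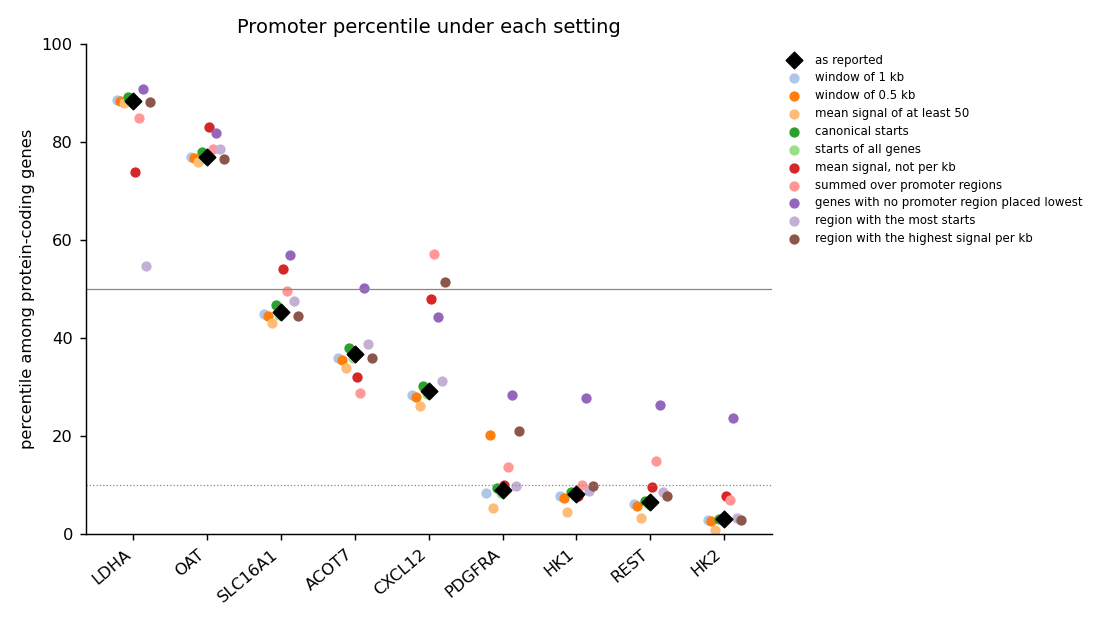
Percentile of each disallowed gene's promoter level among protein-coding genes as reported (black diamonds) and under 10 other settings (coloured points). The solid line marks the median of genes and the dotted line the 10th percentile. LDHA drops to 54.6 when the region with the most starts stands for it, and HK1, HK2, REST and PDGFRA stay below 30 under each setting.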

How the data were processed

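ATAC-seq libraries of EndoC-βH3 cells, 3 non-senescent and 3 senescent by their labels, stand behind the table. By its methods section, the authors' reads were trimmed (Trim Galore), placed on hg38 (Bowtie2), freed of mitochondrial and duplicate reads and moved by the Tn5 offset. MACS2 peaks of all libraries were merged, and reads in the merged peaks were normalised with DESeq2 by the authors. Versions are not given in the sources used here. The deposited signal is the authors' mean of normalised counts over all libraries, and a library without reads at a region lowers it. Depth per library cannot be read from it, so no counting interval is given. Another 5 columns hold the authors' own comparison of the groups (fold change, its error, statistic, p-values) and were not used. Signal tracks were not analysed here.

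Regions were assigned to GENCODE 44 starts on hg38 with Python 3.11.15, pandas 2.3.3 and pysam 0.24.0. Starts of regions were read as counted from 0, which the sources do not state. Printed coordinates of regions are those of the table, and those of sequences count from 1. The assignment was tested on simulated regions. The promoter region of highest mean signal stood for a gene, and its signal was divided by its width. Named were all 10 members, other hexokinases, LDHB and SLC16A genes, and the highest and lowest gene of each list. Some genes that this rule names are not reported here. LDHC, RCOR1, INS, PDGFA, PDGFC, PDGFRB and ACKR3 fall outside that rule and were chosen after their values were seen. Members, lists and motifs were chosen with earlier results of these data known. Alternatives changed the window, the distal limit, a minimum mean signal of 50, the set of starts and the value taken per gene.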

Additional observations from a re-analysis of the deposited data

How the results depend on the processing

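The median percentile of the promoters, 29.1, was 28.4 with a window of 1 kb, 27.8 with 0.5 kb, 26.0 with a minimum mean signal of 50, 30.2 with canonical starts, 18.8 with starts of all genes, noncoding ones included, and 31.9 without division by width. Among settings chosen after seeing the data it was 36.2 with genes lacking a promoter region placed lowest, 31.2 with the region holding the most starts and 35.9 with the region of highest signal per kb. The median percentile of the summed distal signal, 57.1, was 55.7 with 0.5 kb, 61.0 with a distal limit of 50 kb, 50.5 with the minimum, 64.8 with starts of all genes, 63.0 for the strongest distal region per kb and 64.1 for the number of regions. Distal regions fell from 46 to 29 with 50 kb, 30 with the minimum and 24 with starts of all genes. The cause was not tested. With starts of all genes, 10 rather than 9 members had a promoter region. Of 34 summary values 16 stayed within a factor of 1.5 (counts) or the 95% Wilson interval of the percentile over genes, which is narrow, and no setting turned a median to the other side of 50. The distal limit cannot change a promoter value and was not counted there. Leaving out libraries, other normalisations and a pseudocount could not be run. No paired analysis was possible because only means over all libraries were in the table. Depth per library is unknown. Of the 46 distal regions 16, 34.8%, had a mean signal under 50, beside 31.6% of all distal regions.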

Other observations

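Markers of other pancreatic cell types gave a scale for the low promoters of the list. Among mesenchyme markers with a promoter region, levels ran from 188 per kb at ACTA2, smooth muscle actin, to 72.9 at COL1A2, a collagen chain. The ACTA2 region is shared with FAS. All 5 levels in this range lay below the median of genes. PDGFRA, with 144 per kb, HK1, with 135, REST, with 115, and HK2, with 77.4, lay inside that range. The 2 endothelium markers with a region were PECAM1 with 144 per kb and KDR, a VEGF receptor, with 99.7. The highest alpha cell marker was IRX2, a transcription factor, with 771 per kb. Acinar markers ran from 1298 per kb at CPA1, a carboxypeptidase, to 52.2 at CEL, a lipase. The highest duct marker was KRT19, a keratin, with 737 per kb, and the highest blood cell marker was CD68, a macrophage glycoprotein, with 921.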
